A study of Mus musculus with 6 samples.

Results

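The genes of the autophagy machinery were followed, step by step, in mouse skeletal muscle that had received a viral vector for the transcription factor TFEB. The list held 43 genes in 5 steps: initiation (5 genes), nucleation and membrane supply (12), conjugation (14), receptors (6) and fusion with the lysosome (6). A probe set, the group of short oligonucleotides that reads a transcript on an Affymetrix array, was a member where the platform annotation gave it the symbol of a listed gene and no other symbol. By this rule 76 of the 22626 probe sets tested were members, and they read 38 of the 43 genes. Atg9a, Atg4c, Optn, Calcoco1 and Epg5 had no probe set of their own and were not analysed here.

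Total muscle RNA of 6 wild-type C57BL/6 mice was hybridised, 1 array per mouse. In the TFEB overexpression group (n = 3), an adeno-associated virus (AAV) had delivered the mouse form of TFEB, and in the GFP control group (n = 3) it had delivered green fluorescent protein, so that both groups carried virus. By the study's account both vectors used the CMV promoter, which is not limited to muscle fibres. The labels give an age of 1 month, and the study calls the mice adult. The arrays are called TFEB 1 to 3 and GFP 1 to 3 here, after the replicate numbers in the labels, which are not said to pair mice of the different groups.

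Values are log2 signals after robust multiarray averaging (RMA), on which a difference of 1 is a 2-fold difference. Levels of different probe sets are not set against each other, because their probes bind with different strength. Log2 fold changes are TFEB overexpression over GFP control, ± the standard error (SE, n = 3 and 3 arrays). A probe set rose or fell where limma gave an adjusted p under 0.05, with the adjustment over all 22626 probe sets. A second count also asked for a change of at least 1.5-fold, the limit that the study set for its gene list.

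Autophagy encloses cytoplasm in a double membrane and delivers it to the lysosome. A kinase complex starts the process, a lipid kinase complex marks the growing membrane, a pair of ubiquitin-like conjugation systems couples LC3 and GABARAP proteins to it, receptors tie cargo to LC3, and a small GTPase, a SNARE protein and a tethering complex bring the closed vesicle to the lysosome. Skeletal muscle depends on autophagy to clear damaged mitochondria and to keep its fibres intact, and TFEB is known in human cells for binding E-box sites near genes of lysosomes and autophagy.

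Markers of the fibres themselves were bright, where the highest signal of any probe set was 14.34 to 14.37 in each array. Their mean log2 level over the 12 of 13 measured was 13.94 to 13.97 in TFEB arrays and 13.95 to 13.97 in GFP arrays. Single ones differed: 2 rose (Myh1 0.45 and Myh2 0.32) and 1 fell (Actn3 -0.27). Every TFEB array lay below every GFP array for Ckm, Myh4, Tnnt3, Tnni2, Tnnc2, Actn3, Pvalb and Atp2a1. For Acta1, Myh1, Myh2 and Mylpf every TFEB array lay above. The median log2 fold change of the list was -0.05, so the similar mean level does not show equal fibre RNA. Several lists of other markers differed between the groups. Of the fibroblast markers, 7 of 8 were higher in TFEB muscle (mean level 11.18 to 11.47, against 9.74 to 10.05 in GFP muscle), of the endothelial markers 5 of 6 (8.09 to 8.31, against 7.02 to 7.32) and of the markers of embryonic and regenerating muscle 9 of 10 (9.58 to 9.97, against 6.76 to 7.06). The 13 macrophage markers, of which 1 rose, averaged 8.31, 9.10 and 9.07 in TFEB 1 to 3, against 6.74 in GFP 1, 9.03 in GFP 2 and 6.71 in GFP 3. Of the 3 neutrophil markers measured 2 were higher (5.74 to 6.07, against 4.60 to 4.76), and the 6 lymphocyte markers measured averaged 5.00 to 5.17 in TFEB arrays, against 4.95, 5.95 and 4.99 in GFP 1 to 3. GFP 2 also differed over 2-fold from GFP 1 and GFP 3 at 844 and 725 probe sets, against 87 between GFP 1 and GFP 3. For RNA integrity, the beta-actin control probe sets gave a 3′ minus 5′ log2 signal of 0.22 to 0.34 in TFEB arrays and 0.037 to 0.077 in GFP arrays. Those of Gapdh gave -0.04 to 0.05 in TFEB arrays and -0.07 to -0.06 in GFP arrays. The mean of the 18S control probe sets was 11.16 to 11.81 in TFEB arrays and 12.01 to 12.45 in GFP arrays. Tfeb itself was read by 1 probe set, at 7.92, 7.68 and 7.61 in TFEB arrays and 8.49, 8.47 and 8.58 in GFP arrays. In the arrays labelled as TFEB overexpression it was thus 1.71-fold lower by limma (-0.77 ± 0.10, adjusted p = 0.00244). The reason for that fall was not tested. Whether the Tfeb probe set lies within the delivered sequence is not stated in the labels or methods, and it was therefore no check of the labels.

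Most member genes that passed the test were lower in TFEB muscle. Among the 25 other autophagy genes measured, given further below, 9 rose and 4 fell. Of the 76 member probe sets 25 fell (32.9%), 2 rose (2.63%) and 49 did not pass, where over the whole array 18.1% of probe sets fell and 14.5% rose. The fallen probe sets belonged to 16 genes, led by the kinase gene Ulk2, the membrane gene Vmp1 and the LC3 gene Map1lc3b. Those that rose were 1 probe set each of Map1lc3a, another LC3 gene, and Wipi1, which encodes a reader of the lipid made during nucleation. In whole-muscle RNA, fewer cells of a type and less RNA per cell cannot be told apart.

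With the 1.5-fold limit added, 4 of the 25 fallen probe sets passed (5.26% of members, against 6.11% of the array), and these were probe sets of Ulk2, Vmp1 and Map1lc3b. The count was 8 without GFP 2, and 7 with arrays shifted to equal medians or with array weights. The share of the array past both limits was not counted in those settings. By adjusted p alone the share of the array that fell also grew, from 18.1% to 21.3% without GFP 2. It was 23.2% with equal medians and 23.3% with array weights. No member rose past that limit with limma, at the adjusted p or at an unadjusted p under 0.05 (0 of 76), nor with the methods' t-test, the one that the study names in general for its statistics, whereas 7.51% of the array did with limma. The groups did not overlap for 33 members that were lower in TFEB muscle (43.4%, against 29.7% of the array) and for 6 that were higher (7.89%, against 20.1%). With each gene read by its brightest probe set, 12 of 38 genes fell (31.6%) and 1 rose (2.63%), against 16.8% and 16.8% of all 12393 genes. The 12 genes became 2 without GFP 1, 3 without GFP 3, 4 without TFEB 3, 5 without TFEB 2 and 6 without TFEB 1. The share of all genes that fell was not counted with an array left out. Of all probe sets 10.7% fell without GFP 1, 9.7% without GFP 3 and 10.1% without TFEB 3. The share was 12.6% without TFEB 2 and 13.1% without TFEB 1. The excess of member genes over all genes is thus not shown with an array left out. The median log2 fold change of the 38 genes was -0.07, against -0.05 over all genes.

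**Figure D1:**
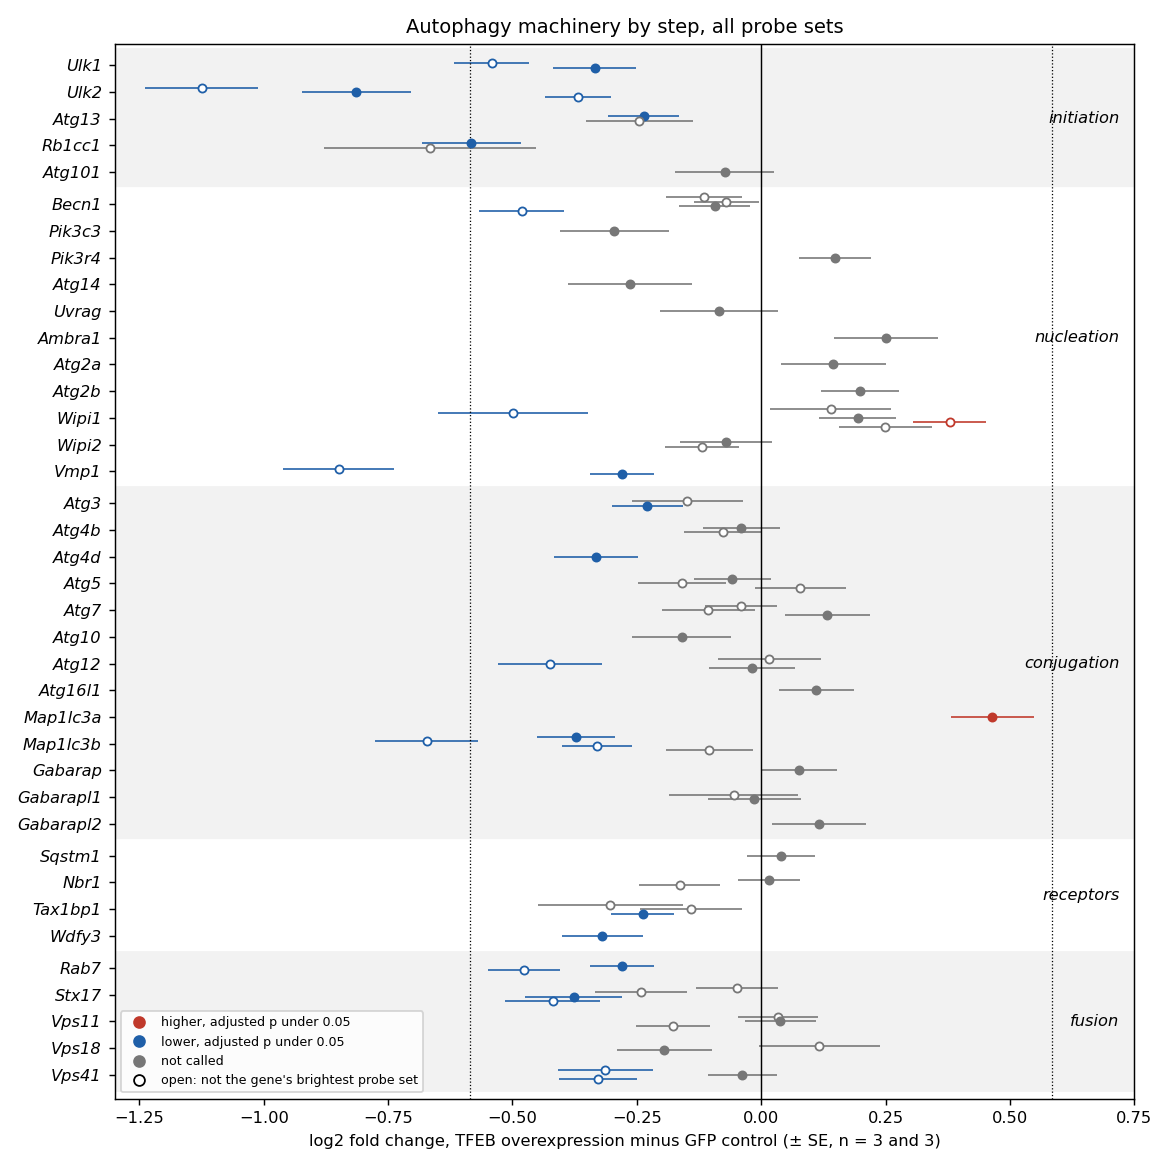
Log2 fold change (TFEB overexpression minus GFP control, horizontal axis) of all 76 member probe sets, by gene and step, with SE bars (n = 3 arrays per group), filled points for the brightest probe set of a gene and dotted lines at 1.5-fold. Most coloured points lie left of 0, with Ulk2 farthest out at -1.12, and the 2 red points right of 0 are Wipi1 and Map1lc3a.

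How many members fell depended on single arrays. The count was 9 without GFP 1, 10 without GFP 3, 11 without TFEB 3, 15 without TFEB 1, 16 without TFEB 2 and 27 without GFP 2. The share of the array that fell also dropped without GFP 1, GFP 3 or any TFEB array, but less than the members' share. With all arrays 32.9% of members fell, against 18.1% of the array. Without GFP 1 the share was 11.8% of members against 10.7% of the array, so that the members lay near the background. It was 13.2% against 9.7% without GFP 3, and 14.5% against 10.1% without TFEB 3. Without GFP 2, the array that stood apart, 24 of the 25 fallen probe sets were among the 27. GFP 2, whose macrophage markers were at the level of the TFEB arrays, was the lowest of the controls at 23 of the 25 fallen probe sets. At how many probe sets of the whole array GFP 2 was the lowest control was not counted. The median deviation of these 25 from the control mean was -0.37, -0.35 and -0.47 in TFEB 1 to 3. In GFP 1 to 3 it was 0.05, -0.08 and 0.02. The 25 were picked for lower TFEB values, so the TFEB deviations follow from that choice. Over all probe sets the median deviation was -0.055 to -0.063 in TFEB arrays and 0.006, -0.039 and 0.02 in GFP 1 to 3, so GFP 2 lay toward the TFEB arrays there too. The share of the members' calls that were falls was 92.6% as deposited, 92.9% with arrays shifted to equal medians and 79.2% with arrays shifted to the fast fibre genes. The part that the macrophage, fibroblast, endothelial, neutrophil and regeneration markers and the actin, Gapdh and 18S signals have in these counts was not tested.

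**Figure D2:**
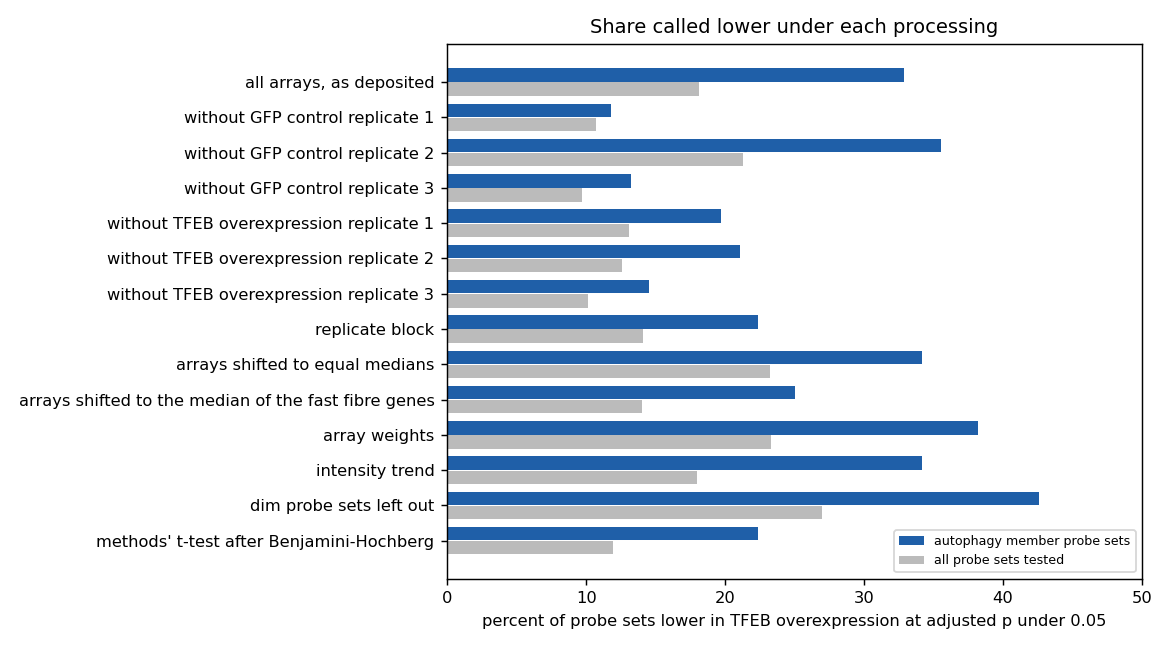
Percent of probe sets that fell in TFEB muscle (horizontal axis) under each processing, among the autophagy members (blue) and over all probe sets tested (grey). The members' bar is the longer one in every row, at 32.9% against 18.1% with all arrays, and the closest pair is 11.8% against 10.7% without GFP control replicate 1.

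Of the 27 calls, 11 held under every alternative run, which were each array left out in turn, the replicate number as a block, both other array scalings, array weights, an intensity trend in the variance, dim probe sets left out and the methods' t-test. They were all 3 probe sets of Ulk2 and 1 probe set each of Ulk1, Rb1cc1, Becn1, Vmp1, Map1lc3b, Rab7, Wipi1 and Map1lc3a, the Wipi1 probe set being too dim for the setting that leaves dim probe sets out. The other 16 calls ended under at least 1 alternative, and no call changed its direction. The share of calls over the whole array that held under every alternative was not counted.

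**Figure D3:**
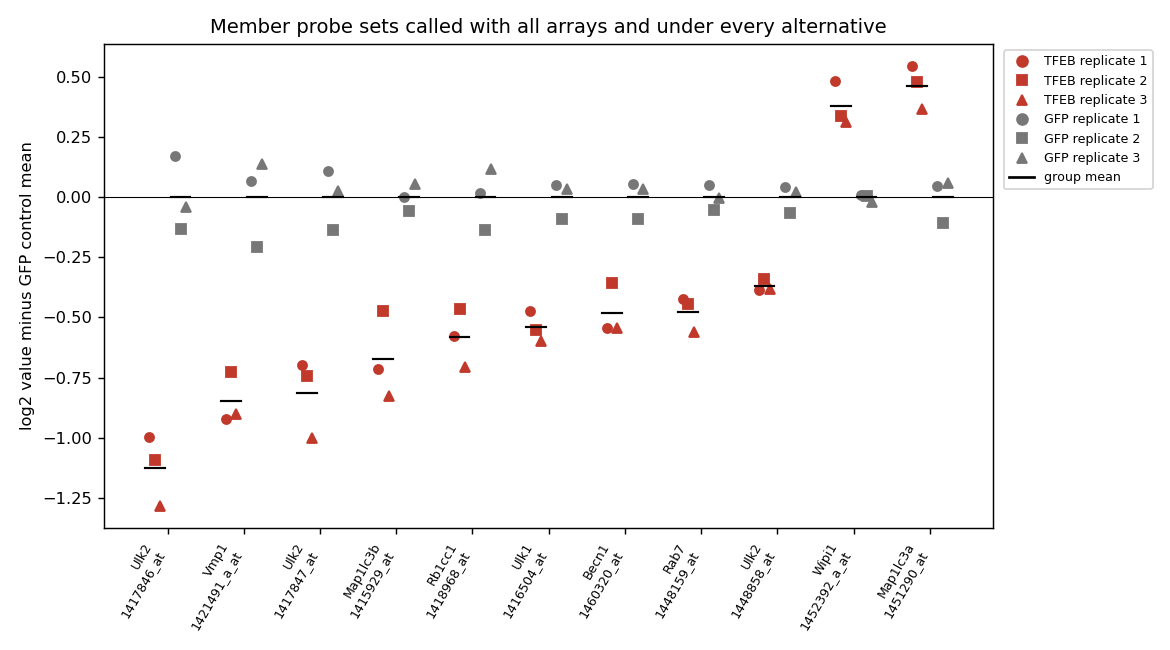
The 11 member probe sets whose call held under every alternative run, as log2 value minus the GFP control mean (vertical axis), with red symbols for the 3 TFEB arrays, grey symbols for the 3 GFP arrays and black bars for group means. Every red symbol lies outside the span of the grey ones of its probe set, below it for 9 probe sets and above it for Wipi1 and Map1lc3a.

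Initiation was the step with the largest share of fallen probe sets (70% of 10, with no test between steps). The ULK kinase complex joins the kinases ULK1 or ULK2 with ATG13, ATG101 and the scaffold FIP200, the product of Rb1cc1, and passes the signal of starvation on to the membrane machinery. Where 18.1% of the array fell, 7 of its 10 probe sets fell and 0 rose (0 also at an unadjusted p under 0.05 with limma and with the methods' t-test), and by the brightest probe set 4 of 5 genes fell (80%, against 16.8% of all genes), with a median of -0.33. Of the 7 calls 5 held under every alternative.

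Ulk2 gave the largest fall of all members. Its probe set 1417846_at read 8.21, 8.12 and 7.92 in TFEB muscles, against 9.38, 9.07 and 9.17 in GFP muscles, a log2 fold change of -1.12 ± 0.11 or 2.18-fold lower (adjusted p = 0.00129). The brightest probe set, 1417847_at, read 9.02, 8.97 and 8.71 in TFEB muscles, against 9.82, 9.58 and 9.74 in GFP muscles (-0.81 ± 0.11, adjusted p = 0.00301). A narrower gap was read by 1448858_at, with 7.35, 7.40 and 7.35 in TFEB muscles and 7.78, 7.67 and 7.76 in GFP muscles (-0.37 ± 0.07, adjusted p = 0.00811). All 3 probe sets thus had each TFEB array below each GFP array, although the size of the fall ranged over 0.76 on the log2 scale between them.

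The promoter of Ulk2 is shown because this gene fell most. The sequence is that of RefSeq, build GRCm38.p6, chr11:61855043-61855342 on the minus strand. It runs from 250 bases before to 50 bases after the start that this window was built on. The annotated gene reaches to 61855334, so nearly all of the window lies inside it, and the bases beyond that end were hardly covered. No letters are in capitals, because the E-box CACGTG, the core of the sites that TFEB and its relatives bind, is not in this window.
Ulk2 promoter: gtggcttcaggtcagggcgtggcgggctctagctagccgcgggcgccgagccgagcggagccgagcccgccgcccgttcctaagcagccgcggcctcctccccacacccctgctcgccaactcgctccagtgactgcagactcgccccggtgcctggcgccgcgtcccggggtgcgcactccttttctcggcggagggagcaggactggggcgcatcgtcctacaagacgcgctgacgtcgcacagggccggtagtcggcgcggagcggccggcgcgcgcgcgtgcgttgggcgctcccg

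Ulk1, the kinase that starvation and AMPK act on, was lower by both of its probe sets. Its probe set 1416504_at read 6.61, 6.53 and 6.48 in TFEB muscles, against 7.13, 6.99 and 7.12 in GFP muscles (-0.54 ± 0.08, adjusted p = 0.00334). The brighter 1448370_at read 8.58, 8.43 and 8.67 in TFEB muscles, against 8.92, 8.84 and 8.92 in GFP muscles (-0.33 ± 0.08, adjusted p = 0.0239). The groups did not overlap for either probe set, but the call of 1448370_at ended without GFP 1, GFP 3, TFEB 1 or TFEB 2 (adjusted p of 0.0591 to 0.0791).

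The scaffold gene Rb1cc1 was read at 8.80, 8.91 and 8.67 in TFEB muscles by 1418968_at, against 9.39, 9.24 and 9.49 in GFP muscles (-0.58 ± 0.10, adjusted p = 0.00644). Its other probe set, 1449292_at, read 8.47, 8.31 and 7.78 in TFEB muscles and 9.15, 8.59 and 8.82 in GFP muscles (-0.67 ± 0.21). That gap was larger but its spread was the largest of all members, and it did not pass (adjusted p = 0.0534), whereas it passed under 6 of the 13 alternatives, without GFP 2 among them (adjusted p = 0.0218). Atg13, whose product bridges kinase and scaffold, fell by 1423793_at (-0.24 ± 0.07, adjusted p = 0.0451), a call that ended without GFP 1, GFP 3 or any TFEB array (adjusted p of 0.0895 to 0.138). Its second probe set, 1423794_at, gave -0.24 ± 0.11 and did not pass (adjusted p = 0.125, and it passed without GFP 2). Atg101, which stabilises ATG13, had 8.19, 8.02 and 8.03 in TFEB muscles and 8.14, 8.01 and 8.31 in GFP muscles (-0.07 ± 0.10, adjusted p = 0.60). It was the smallest change of the step, and its groups overlapped.

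In nucleation and membrane supply, the share of probe sets that fell was near that of the array (20%, against 18.1%). The lipid kinase VPS34 (Pik3c3), its partner p150 (Pik3r4), Beclin 1 (Becn1), ATG14 and UVRAG make the complexes that form phosphatidylinositol 3-phosphate, AMBRA1 regulates them, WIPI1 and WIPI2 bind the lipid, ATG2A and ATG2B move lipids into the growing membrane, and VMP1 acts where that membrane leaves the endoplasmic reticulum. Of 20 probe sets of 11 genes 4 fell and 1 rose, with 1 of 11 genes, Vmp1, lower by its brightest probe set (9.09%, against 16.8% of all genes) and a median over genes of -0.07. Of these 5 calls 3 held under every alternative.

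Vmp1 showed the largest fall of the step. By 1421491_a_at it read 7.49, 7.69 and 7.51 in TFEB muscles, against 8.48, 8.20 and 8.55 in GFP muscles (-0.85 ± 0.11, 1.80-fold lower, adjusted p = 0.00284). The brightest probe set, 1423722_at, gave a fall of -0.28 ± 0.06 (adjusted p = 0.0179), which ended without GFP 1, TFEB 2 or TFEB 3 (adjusted p of 0.0556 to 0.0568). Both had every TFEB array below every GFP array.

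Becn1 was lower by 1 of its 4 probe sets. By 1460320_at it read 9.15, 9.34 and 9.15 in TFEB muscles and 9.75, 9.61 and 9.73 in GFP muscles (-0.48 ± 0.09, adjusted p = 0.00737). The other 3 probe sets, among them the brightest, lay between -0.12 and -0.07 and did not pass, so the fall of Becn1 rests on which probe set reads it.

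Wipi1 was the gene with calls in opposite directions. Its dim probe set 1452392_a_at was higher in TFEB muscle, with 5.47, 5.32 and 5.30, against 5.00, 4.99 and 4.97 in GFP muscle (0.38 ± 0.07, adjusted p = 0.0101). In contrast 1427323_s_at was lower, with 6.43, 6.25 and 6.21 in TFEB muscle, against 7.06, 6.49 and 6.83 in GFP muscle (-0.50 ± 0.15, adjusted p = 0.0441). The fall ended without GFP 1, GFP 3 or any TFEB array (adjusted p of 0.0658 to 0.132), while the rise held under all 12 alternatives run for it. The other 3 probe sets of Wipi1 gave 0.14, 0.19 and 0.25 and did not pass, and of these 1439060_s_at, the brightest, and 1456624_at passed with arrays shifted to the fast fibre genes (adjusted p = 0.038 for the brightest). Thus 4 of the 5 probe sets of Wipi1 were above 0.

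The remaining genes of nucleation did not pass. Pik3c3 had the largest change by a brightest probe set in this step, with 7.15, 7.28 and 7.25 in TFEB muscles and 7.71, 7.32 and 7.53 in GFP muscles (-0.295 ± 0.11, adjusted p = 0.0807), and it passed without GFP 2. The groups did not overlap, with GFP 2 closest to the TFEB arrays. Wipi2 had the smallest, with 7.89, 7.85 and 7.83 in TFEB muscles and 7.91, 7.78 and 8.09 in GFP muscles (-0.07 ± 0.09, adjusted p = 0.583), and its groups overlapped. The lipid kinase partner Atg14 gave -0.26 ± 0.13 and Uvrag -0.09 ± 0.12. On the other side of 0 lay the partner Pik3r4 (0.15 ± 0.07), the regulator Ambra1 (0.25 ± 0.10) and the lipid transfer genes Atg2a (0.14 ± 0.11) and Atg2b (0.20 ± 0.08). Atg2b passed with arrays shifted to the fast fibre genes, and Ambra1 passed without TFEB 2 (adjusted p = 0.0444, against 0.108 with all arrays).

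Conjugation held a fall and a rise within the LC3 family. The E1-like enzyme ATG7, the E2-like enzymes ATG3 and ATG10 and the complex of ATG12, ATG5 and ATG16L1 attach LC3 and GABARAP proteins to lipid, and ATG4 proteases process and release them. Of 25 probe sets of 13 genes 6 fell and 1 rose, and the share that fell (24%) was near that of the array (18.1%). By the brightest probe set Map1lc3b, Atg3 and Atg4d fell (23.1% of genes, against 16.8% of all genes) and Map1lc3a rose, and the median of the 13 genes was -0.02. Of the 7 calls 2 held under every alternative, 1 of Map1lc3b and that of Map1lc3a.

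Map1lc3b encodes LC3B, the form most used as an autophagosome marker. By 1415929_at it read 10.03, 10.27 and 9.92 in TFEB muscles, against 10.75, 10.69 and 10.80 in GFP muscles (-0.67 ± 0.10, 1.59-fold lower, adjusted p = 0.00457). The brightest, 1415928_a_at, read 10.83, 10.79 and 10.66 in TFEB muscles, against 11.19, 11.06 and 11.15 in GFP muscles (-0.37 ± 0.08, adjusted p = 0.0133). A similar fall was seen by 1415930_a_at, with 10.81, 10.83 and 10.70 in TFEB muscles against 11.14, 11.08 and 11.11 in GFP muscles (-0.33 ± 0.07, adjusted p = 0.0139). All TFEB arrays were below all GFP arrays in these 3 probe sets. The calls of 1415928_a_at and 1415930_a_at ended narrowly without GFP 1 or GFP 3, and that of 1415930_a_at also without TFEB 3 (adjusted p of 0.0501 to 0.0527). The last probe set, 1428024_at, was near the dim end of the scale at 3.74 to 3.90 in TFEB muscles and 3.81 to 4.04 in GFP muscles, and its groups overlapped (-0.10 ± 0.09).

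Map1lc3a, which encodes LC3A, rose. It was read by 1451290_at at 11.56, 11.49 and 11.38 in TFEB muscles, against 11.06, 10.91 and 11.07 in GFP muscles (0.46 ± 0.08, 1.38-fold higher, adjusted p = 0.0079), with no overlap. The GABARAP genes, which act later in vesicle maturation, did not pass: Gabarap gave 0.08 ± 0.08, Gabarapl2 0.12 ± 0.09, and both probe sets of Gabarapl1 lay near 0. Of the Gabarapl1 probe sets the brighter, 1416419_s_at, had 8.99, 9.14 and 8.87 in TFEB muscles and 9.03, 8.93 and 9.09 in GFP muscles (-0.01 ± 0.09, adjusted p = 0.92), the smallest change of the step.

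**Figure D4:**
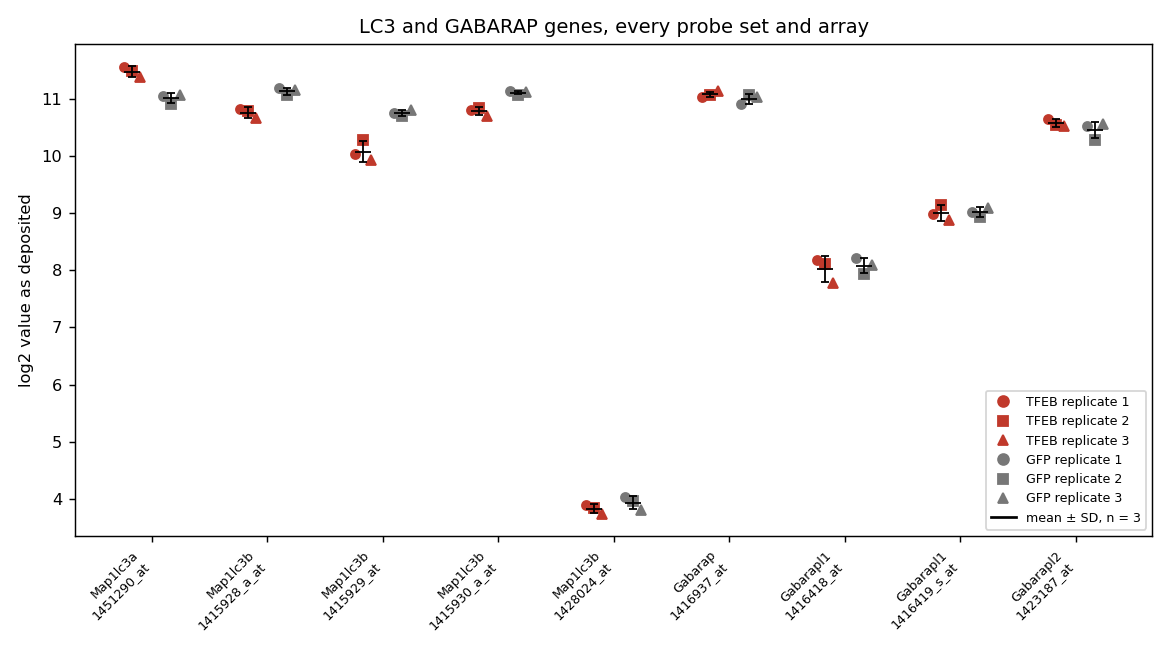
Deposited log2 value (vertical axis) of every probe set of the LC3 and GABARAP genes in the 3 TFEB arrays (red) and the 3 GFP arrays (grey), with mean ± SD (n = 3). The TFEB arrays lie above the GFP arrays for Map1lc3a (11.38 to 11.56 against 10.91 to 11.07) and below them for 3 of the 4 Map1lc3b probe sets, and the GABARAP groups overlap.

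Among the conjugation enzymes Atg12, Atg4d and Atg3 each had 1 probe set that fell. Atg12, the ubiquitin-like protein joined to ATG5, read 7.44, 7.60 and 7.43 in TFEB muscles by 1451746_a_at, against 8.0, 7.72 and 8.02 in GFP muscles (-0.42 ± 0.10, adjusted p = 0.0228). Its brightest probe set 1451747_a_at was at -0.02 and 1439457_x_at at 0.02, and neither passed. The call ended without GFP 1, GFP 3, TFEB 1 or TFEB 3 (adjusted p of 0.0699 to 0.0805). The protease gene Atg4d read 8.40, 8.18 and 8.29 in TFEB muscles, against 8.59, 8.58 and 8.70 in GFP muscles (-0.33 ± 0.08, adjusted p = 0.0255), a call that ended without GFP 1, GFP 3, TFEB 2 or TFEB 3 (adjusted p of 0.0618 to 0.0877). Atg3 was called lower by 1448993_at (-0.23 ± 0.07, adjusted p = 0.0495), just inside the threshold, and the call ended without any 1 of the 6 arrays (adjusted p of 0.0661 to 0.147). The other probe set of Atg3 was dim and did not pass (-0.15). Atg4b, Atg5, Atg7, Atg10 and Atg16l1 did not pass by any of their 10 probe sets, which lay between -0.16 and 0.13.

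E-boxes in the promoter windows of the members are given because TFEB binds such letters. RefSeq windows of 300 bases (250 before a start and 50 after it) were found for 34 of the 43 members, 40 windows in all. Such a start is not always the outer end of the annotated gene. CACGTG, which reads the same on both strands, was in those of 4 genes (11.8%), Atg14, Atg3, Atg5 and Atg7, against 8.09% of all 27025 genes in the table. The longer TCACGTG, searched on both strands and overlapping the first motif, was in those of Atg14, Atg3 and Atg7 (8.82%, against 4.29% of all genes). Of these 4 genes Atg3 fell and the others did not pass the test. Among the 12 genes that fell by their brightest probe set, Atg3 was thus the one with this motif in a window found here, and Rb1cc1 and Wdfy3 had no window in the table.

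The window of Atg3 held the motif at 2 places, first bases 94 and 71 before the start (build GRCm38.p6, chr16:45158579-45158878, plus strand). Capitals mark the E-boxes here and in the shorter stretches around the single E-boxes of the other genes, which begin 1 base before the start in Atg14, 14 bases before it in Atg5 and 132 bases before it in Atg7. Those stretches lie in the windows chr14:47568385-47568684 (minus strand), chr10:44268089-44268388 (plus strand) and chr6:114670846-114671145 (plus strand). The last of these, that of Atg7, lies far inside the annotated gene, which begins at chr6:114643127, so its E-box is at an internal start.
Atg3 promoter: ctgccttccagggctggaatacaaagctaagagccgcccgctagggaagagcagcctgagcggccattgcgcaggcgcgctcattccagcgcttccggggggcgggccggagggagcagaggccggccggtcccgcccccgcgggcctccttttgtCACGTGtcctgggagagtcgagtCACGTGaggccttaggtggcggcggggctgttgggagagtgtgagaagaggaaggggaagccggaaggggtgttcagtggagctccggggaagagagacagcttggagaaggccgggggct
Atg14 site: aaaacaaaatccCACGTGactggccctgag
Atg5 site: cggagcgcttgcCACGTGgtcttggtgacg
Atg7 site: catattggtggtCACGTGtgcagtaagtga

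Of the receptors, Tax1bp1 and Wdfy3 were lower and Sqstm1 and Nbr1 did not pass. Receptors bind ubiquitin or cargo with one end and LC3 with the other, p62 (Sqstm1) and NBR1 being the classical pair, and ALFY (Wdfy3) helps to clear protein aggregates. Of 7 probe sets of 4 genes 2 fell and 0 rose (0 also at an unadjusted p under 0.05 with limma and with the methods' t-test). The share that fell was 28.6% of probe sets, against 18.1% of the array, and 50% of the genes by the brightest probe set, against 16.8% of all genes. Neither of the calls held under every alternative. Sqstm1, a gene known in human cells to respond to TFEB, read 11.92, 11.97 and 12.04 in TFEB muscles and 11.97, 11.93 and 11.91 in GFP muscles (0.04 ± 0.07, adjusted p = 0.676). The brighter probe set of Nbr1, 1448343_a_at, had the smallest change of the step, with 10.13, 10.14 and 10.10 in TFEB muscles and 10.13, 10.10 and 10.10 in GFP muscles (0.02 ± 0.06, adjusted p = 0.864). The groups overlapped for both. The second probe set of Nbr1 gave -0.16 and did not pass.

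Wdfy3 had the largest change of the receptors, with 6.72, 6.84 and 6.64 in TFEB muscles and 7.13, 6.98 and 7.05 in GFP muscles (-0.32 ± 0.08, adjusted p = 0.0265). The call ended without GFP 1, GFP 3, TFEB 1 or TFEB 3 (adjusted p of 0.0723 to 0.0885). Tax1bp1, a receptor for ubiquitin-bound cargo, fell by its brightest probe set 1448399_at (-0.24 ± 0.06, adjusted p = 0.0292), which ended without GFP 1, GFP 3 or any TFEB array (adjusted p of 0.0721 to 0.097). Its other probe sets gave -0.30 and -0.14 and did not pass.

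In fusion, the genes of the GTPase and of the SNARE fell by their brightest probe sets, and the tethering subunits did not. RAB7 marks late endosomes and lysosomes, syntaxin 17 (Stx17) is the SNARE of the closed autophagosome, and VPS11, VPS18 and VPS41 are subunits of the HOPS complex, which tethers it to the lysosome. Of 14 probe sets of 5 genes 6 fell and 0 rose (0 also at an unadjusted p under 0.05 with limma and with the methods' t-test), and 42.9% of its probe sets fell, against 18.1% of the array. By the brightest probe set 2 of 5 genes fell (40%, against 16.8% of all genes), with a median over genes of -0.19. Of the 6 calls 1 held under every alternative, that of 1448159_at of Rab7.

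Rab7 read 9.35, 9.33 and 9.22 in TFEB muscles by 1448159_at, against 9.83, 9.73 and 9.78 in GFP muscles (-0.48 ± 0.07, 1.39-fold lower, adjusted p = 0.00441). Its brightest probe set 1415734_at gave -0.28 ± 0.06 (adjusted p = 0.0176), which ended without GFP 1, GFP 3, TFEB 1 or TFEB 3 (adjusted p of 0.0526 to 0.0666). Neither probe set had overlapping groups.

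Stx17 fell by 2 of its 4 probe sets. By the brightest, 1428917_at, it read 8.21, 8.12 and 8.0 in TFEB muscles, against 8.64, 8.39 and 8.43 in GFP muscles (-0.38 ± 0.10, adjusted p = 0.0273). By 1431929_a_at it read 7.41, 7.35 and 7.18 in TFEB muscles, against 7.85, 7.63 and 7.72 in GFP muscles (-0.42 ± 0.10, adjusted p = 0.0174). The groups did not overlap for either. The first call ended without GFP 1, GFP 3, TFEB 2 or TFEB 3 (adjusted p of 0.0624 to 0.0919) and the second without GFP 1, GFP 3 or TFEB 3 (adjusted p of 0.0557 to 0.058). The remaining probe sets gave -0.24 and -0.05 and did not pass, although that at -0.24 passed with array weights (adjusted p = 0.0496).

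The HOPS subunits differed among themselves in how many probe sets passed. Vps41 read 8.37, 8.56 and 8.40 in TFEB muscles by 1437901_a_at, against 8.83, 8.74 and 8.75 in GFP muscles (-0.33 ± 0.08, adjusted p = 0.0212), and 1433665_at gave a similar fall (-0.31 ± 0.10, adjusted p = 0.0451). The first call ended without GFP 1, GFP 3, TFEB 1 or TFEB 3 (adjusted p of 0.0619 to 0.0745), the second without GFP 1, GFP 3 or any TFEB array (adjusted p of 0.0568 to 0.125). Its brightest probe set 1433666_s_at had 8.67, 8.60 and 8.66 in TFEB muscles and 8.71, 8.61 and 8.72 in GFP muscles (-0.04 ± 0.07, adjusted p = 0.698), the smallest change of the step, with overlapping groups. Vps11 did not pass by any of its 3 probe sets (-0.18 to 0.04), nor Vps18 by either of its own (-0.19 and 0.12).

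Other genes of the pathway, named in a separate list of 33 genes, were set beside the members. Of the 25 that had a probe set 9 rose (36%) and 4 fell (16%) by the brightest one, with a median of 0.10, where 16.8% of all genes rose and 16.8% fell. Over all their 45 probe sets the split was nearly even, with 12 higher and 10 lower. Tecpr1, whose product tethers autophagosomes to lysosomes, passed both limits, with 7.96, 7.96 and 8.15 in TFEB muscles and 7.32, 7.45 and 7.32 in GFP muscles (0.66 ± 0.08, adjusted p = 0.00259). The lysosomal membrane gene Lamp2 also passed both limits by 1416344_at (0.69 ± 0.12, adjusted p = 0.00613). Its brightest probe set (0.44) and 1434503_s_at (0.56) rose without reaching 1.5-fold, and 1416343_a_at did not pass (-0.008). Snap29, the SNARE partner of syntaxin 17, passed both limits downwards by 1423355_at (-0.65 ± 0.10, adjusted p = 0.00382), and its brightest probe set gave -0.44. The other genes that rose were Lamp1, Sh3glb1, Trp53inp2, Bag3, Ykt6, Wdr45b and Vps39 (0.24 to 0.45), and the other genes that fell were the mitophagy receptors Bnip3 and Fundc1 and the phosphatase Mtmr3 (-0.37 to -0.46). Sh3glb1 had probe sets in both directions, 0.24 by the brightest and -0.47 and -0.30 by the others. The dimmer probe sets of Ykt6 (0.06) and Vps39 (0.008) did not pass. The count of genes that rose was 5 without GFP 1, 4 without GFP 3 and 5 without TFEB 3, and that of genes that fell was 2 without GFP 1 and 1 without GFP 3 or TFEB 3.

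Both lists of autophagy genes known to answer to a transcription factor stood near or below 0. For the 7 genes known in human cells to answer to TFEB (Map1lc3b, Sqstm1, Uvrag, Wipi1, Vps11, Vps18 and Atg9b), limma gave 0 rises and 1 fall by the brightest probe set, with a median of -0.02. That median is the value of Atg9b, which was near the dim end of the scale (3.66 to 4.03), so its lack of a call says little. At an unadjusted p under 0.05 there was 1 rise and 1 fall, and with the methods' t-test 0 rises and 1 fall. Over all their 17 probe sets 4 fell and 1 rose, those of Map1lc3b and Wipi1 given above. Of the genes known to answer to FoxO3, the factor that drives autophagy genes in wasting muscle, 8 of 9 were measured. Map1lc3b, Ulk2 and Bnip3 fell and 0 rose (0 also at an unadjusted p under 0.05 and with the methods' t-test), with a median of -0.19, and over their 20 probe sets 9 fell and 0 rose. By the brightest probe set 14.3% of the TFEB list and 37.5% of the FoxO3 list fell, where 16.8% of all genes fell and 16.8% rose. Over the whole array 18.1% of probe sets fell and 14.5% rose. The calls of both lists are among those already counted above, so they are not a separate result.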

How the data were processed

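Muscle RNA of 3 TFEB overexpression and 3 GFP control mice was measured on Affymetrix arrays. The values that the authors deposited are on a log2 scale, made per the labels with affy and RMA (versions not stated). Quantile normalization within RMA makes array distributions alike, so a change of most transcripts in one direction would be partly removed. Signal above background was not assessed, and the number of arrays limits the precision. Control probe sets of the manufacturer (64) were not tested. Of the 22626 probe sets tested, the platform annotation gave 20380 a single symbol, 691 several and 1555 none, and all 76 member symbols matched RefSeq (GRCm38.p6).

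The test of TFEB overexpression against GFP control was limma's (version 3.58.1 in R 4.3.3, lmFit then eBayes, two-sided), with Benjamini-Hochberg adjustment. Each gene was read by its brightest probe set, that of highest mean signal. The members and lists were chosen with earlier results of these data known. Values in all arrays are given for probe sets past both limits, then for further calls in order of fold change up to 20, and for the largest and smallest change of each step by the brightest probe set. Arrays were grouped by the labels, which call them biological replicates. In a simulation of TFEB overexpression against GFP control (22626 probe sets, 200 changed) the fit recovered 80% of 2-fold and 97% of 4-fold changes, with 5 false calls. A recovered change had to pass the adjusted p and the 1.5-fold limit, and the noise was drawn independently for each probe set. The simulation therefore does not give the error rate of calls by adjusted p alone, nor of smaller changes such as most of those of the members. The alternatives left out each array, used the replicate number as a block, rescaled arrays to equal medians or to fast fibre genes, weighted arrays, let the variance follow intensity, dropped the dimmer probe sets (mean below the array median), used the t-test of the methods, or changed the probe set per gene.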

Additional observations from a re-analysis of the deposited data

How the results depend on the processing

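Over the 27 called probe sets, 262 comparisons with an alternative kept the call and its direction, 88 lost the call and 0 reversed. With 1 array left out, the members that fell ran from 9 to 27, those that rose from 2 to 3, those that fell past 1.5-fold from 4 to 8, the genes that fell from 2 to 12, the genes that rose from 1 to 2, and the other autophagy genes from 4 to 8 higher and from 1 to 4 lower. A fit on 5 arrays has fewer samples. Deviations of same-numbered arrays gave r of 0.42, 0.17 and -0.23. The closest GFP array was GFP 1 for TFEB 1 and GFP 2 for TFEB 2 and TFEB 3. So few arrays cannot settle whether the numbers pair them. With the replicate block 17 members and 6 genes fell and 5 other autophagy genes rose. With arrays shifted to equal medians 7 members passed both limits downwards and the median of the genes was -0.14. Shifted to the fast fibre genes, 5 members and 3 genes rose, 19 members fell and the median was -0.0109, and 55.3% of all calls on the array were rises, against 44.4% as deposited and 33.7% with equal medians. With array weights 7 members passed both limits downwards, and with dim probe sets left out 1 member rose. The share of the whole array past both limits was counted only for the fit on all arrays as deposited. With the methods' t-test 17 members fell and 2 rose after Benjamini-Hochberg adjustment (26 and 5 at an unadjusted p under 0.05), and 2 other autophagy genes fell. With the probe set of smallest p for each gene, 2 genes rose and the median was -0.17. With 3 arrays per group, changes near the 1.5-fold limit and members near the dim end of the scale are read least firmly.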
